A study of Mus musculus with 18 samples.

Results

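The p53 family in the mouse consists of Trp53, Trp63 and Trp73. These 3 genes were taken by symbol from a table of 25239 genes that gives 1 level per gene in each of 18 RNA-sequencing samples. The level is TPM, a share of all transcripts of a sample that is scaled for gene length, so that genes can be compared within a sample. Trp53 also measured how far the switch built into these cells had turned in each sample.

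p53, p63 and p73 are transcription factors with a shared DNA-binding domain that recognise a common response element. p53 halts the cell cycle or kills the cell under stress and is held down by MDM2 and MDM4, p63 maintains basal and stratified epithelia, and p73 acts in multiciliated cells and the nervous system. Trp63 and Trp73 each have an upstream and an internal promoter, and the internal one gives N-terminally truncated proteins that can oppose the full-length factors. Small cell lung cancer (SCLC) is a neuroendocrine lung tumour in which the p53 and RB pathways are usually lost.

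The samples came from 3 Type D SCLC cell lines, 4711-1, 4711-18 and 4716-11, a class of lines that die after p53 is restored. Each line carried sgBgal, a control guide RNA, or 1 of 2 guide RNAs against Ppia, sgPpia#3.2 or sgPpia#4.1, which encodes cyclophilin A. Each of these cultures received vehicle (Control) or 500 nM 4-OHT, 4-hydroxytamoxifen (Restored), for 72 h. Each of the 6 conditions thus has 1 sample from every line, 3 in all.

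All 18 samples descend from mice with Rb1 flox/flox, Rbl2 flox/flox and Rosa26 FlpO-ER alleles, homozygous for Trp53 XTR, whose lung tumours were started with Ad:CMV-Cre. Cre removes Rb1 and Rbl2 function and inverts a gene trap in Trp53, which then splices from the first exon into GFP. 4-OHT activates the FlpO recombinase, which excises the trap, so Control and Restored cells differ in the trap as well as in exposure to 4-OHT. These effects cannot be told apart, since no sample received 4-OHT and kept the trap, or lost the trap without 4-OHT. Each line was raised from an individual tumour, and cells that kept cyclophilin A could remain in the Ppia-targeted cultures. The names 4711-1 and 4711-18 share a first number, and whether these lines came from the same mouse is not stated in the sources used here. The RNA was taken from whole cultures, so a share of cells in which Trp53 was switched on and a lower level per cell cannot be told apart.

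The cell labels were checked first. Of 9 neuroendocrine markers, Syp, Uchl1 and Ncam1 were at or above 1 TPM in all 18 samples and Syt1 in 16 of them, and Insm1 reached 1 TPM in the 6 samples of 4711-1. Chga, Chgb, Calca and Neurod1 stayed below 1 TPM in every sample, with Chga at 0.156 TPM or less. Rb1 was at 3.36 to 9.44 TPM in Control and 14.6 to 30.8 TPM in Restored samples. Rbl2 was at 1.98 to 4.14 TPM and 3.89 to 6.66 TPM, and a level per gene does not show whether the floxed exons are present. Among 4 leukocyte markers Ptprc and Cd3e were below 0.2 TPM throughout, while the summed level of the 4 was 2.95 to 7.38 TPM in Control and 22.6 to 42.6 TPM in Restored samples, with Cd68 alone at 2 to 7.13 and 21.3 to 39.8 TPM. Summed fibroblast markers ranged from 0.388 to 1.11 TPM, and summed endothelial markers from 0.106 to 1.44 TPM. The part of these markers in the results was not tested.

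Trp53 lies on the forward strand of chromosome 11, at 69580359 to 69591873 in GRCm38 (GENCODE M21), and no other annotated gene overlaps it. Its first exon starts 103 bases from that of Wrap53, which runs the other way. These bases are upstream of the trap and are shown because trapped and restored alleles are transcribed from the same start. Capitals mark the nearest match to the p53 response element, with 3 of 20 bases off the consensus and the 4 core bases intact, starting 75 bases before the first exon.
Trp53, RefSeq, GRCm38.p6, chr11:69580256-69580358, forward strand: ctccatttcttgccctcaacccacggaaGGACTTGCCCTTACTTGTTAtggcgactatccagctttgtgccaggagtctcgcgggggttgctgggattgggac

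Trp73 lies on the reverse strand of chromosome 4, at 154056253 to 154140208, and overlaps the annotated genes Trp73os, on the other strand, and Gm26036. Its internal promoter is shown because it is the start of the N-terminally truncated form. Capitals mark a GC box, GGGCGG, starting 16 bases before the start site, and a match to the p53 response element with 2 of 20 bases off the consensus, starting 66 bases before it.
Trp73 internal start, RefSeq, GRCm38.p6, chr4:154097174-154097423, reverse strand: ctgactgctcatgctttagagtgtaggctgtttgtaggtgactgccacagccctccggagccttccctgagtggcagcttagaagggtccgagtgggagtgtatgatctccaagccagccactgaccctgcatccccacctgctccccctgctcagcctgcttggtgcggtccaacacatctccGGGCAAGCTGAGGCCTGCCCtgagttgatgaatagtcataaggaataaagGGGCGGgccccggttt

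Both strands of 32851 RefSeq upstream windows of 250 bases were searched. A p53 element with up to 2 mismatches was present in 0.271% of them and with up to 3 in 1.14%, and a GC box was present in 32.7%. The E-box CACGTG, held by 6.02% of windows, and TATAAA, held by 12.4%, were not found in the printed stretches. A match is a description of letters and not a bound site. Trp63 lies on the forward strand of chromosome 16, at 25683763 to 25892102 and overlaps the annotated genes Gm24928 and Gm27005. Its promoter is not shown here.

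The first question was how far each p53 family gene moved when p53 was restored. Trp53 rose in every line with every sgRNA, from single-digit to three-digit TPM. With sgBgal, Trp53 was at 7.42, 8.41 and 7.45 TPM in Control samples of 4711-1, 4711-18 and 4716-11, and at 223, 206 and 218 TPM in their Restored samples. With sgPpia#3.2 it was at 6.68, 5.45 and 7.10 TPM in Control and at 213, 181 and 236 TPM in Restored samples. With sgPpia#4.1 it was at 5.81, 8.27 and 7.24 TPM in Control and at 200, 219 and 217 TPM in Restored samples. The highest Control sample lay far below the lowest Restored sample, and all 9 matched pairs moved upward.

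**Figure D1:**
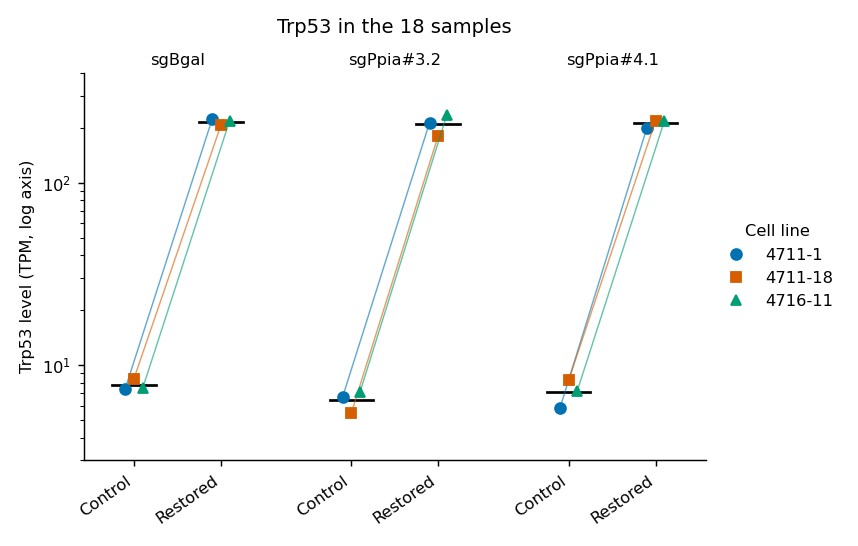
Trp53 level in TPM (log axis) in Control and Restored samples for each sgRNA. Points are samples, colours and shapes are the 3 cell lines, thin lines join the samples of a line, and black bars are means of 3 samples. Control samples sit between 5.45 and 8.41 TPM and Restored samples between 181 and 236 TPM.

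The ratio of Restored to Control Trp53 on the TPM scale had a median of 30.0 over the 9 pairs and ran from 24.5 in 4711-18 with sgBgal to 34.4 in 4711-1 with sgPpia#4.1. The mean level was 7.09 ± 0.992 TPM in Control and 213 ± 15.6 TPM in Restored samples (SD, n = 9). On the log2(TPM + 1) scale sgBgal cells rose by 4.63, sgPpia#3.2 cells by 4.83 and sgPpia#4.1 cells by 4.73, each with a standard error of 0.15. The adjusted p by limma was 1.52e-10, 8.32e-11 and 1.13e-10. The exact two-sided permutation test of 3 against 3 samples gave p = 0.1 in each comparison, the smallest it allows.

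A gene was called when its Benjamini-Hochberg adjusted p by limma was under 0.05 and its log2 change at least 1. By that rule Trp53 was called higher with all 3 sgRNAs, where 7.64% of the 12828 tested genes were called with sgBgal, 5.75% for sgPpia#3.2 and 6.09% for sgPpia#4.1, in either direction. Upward calls alone took 5.46%, 4.44% and 4.3% of the genes, and downward calls 2.17%, 1.31% and 1.79%. Trp53 had the smallest p of all tested genes in each of these 3 comparisons. Ordered by size, its rise ranked 10 for sgBgal, 3 for sgPpia#3.2 and 6 for sgPpia#4.1. 1700007K13Rik had the largest log2 rise in all 3, at 5.57, 5.75 and 5.37, and Sytl1, which encodes a synaptotagmin-like protein, rose by 5.20, 5.07 and 5.13.

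The median log2 change of all tested genes was itself 0.19, 0.17 and 0.15 in these comparisons. Rescaling the samples by median-of-ratios factors moved that median by -0.17, -0.16 and -0.14. Relative to the median gene, Trp53 rose by 4.44, 4.66 and 4.58 as deposited and by 4.42, 4.65 and 4.57 after rescaling.

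Before restoration Trp53 was not silent. Each Control value rested on an estimated 299 to 565 reads, and the lowest, 299 reads in 4711-18 with sgPpia#3.2, had a 95% exact Poisson interval of 266 to 335 reads, or 4.85 to 6.11 TPM. Between 62.5% and 67.3% of all genes had a lower TPM than Trp53 in the same Control sample. In Restored samples Trp53 rested on 9900 to 16336 reads and stood above 95.8% to 96.9% of genes. Reads here are the smallest whole numbers that fit a gene's TPM over the samples, and intervals cover counting error only. The table counts the gene as a whole and holds no separate value for the GFP trap, so trapped and full-length transcripts were not distinguished.

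Trp53 also varied little within a state. The SD of its log2(TPM + 1) level was 0.18 over the 9 Control samples, against a median SD of 0.33 over the 3035 genes within 2-fold of its mean level, of which 9.82% had a smaller SD. Over the 9 Restored samples its SD was 0.11, against a median of 0.25 over 1530 genes, of which 6.34% had a smaller SD. In 4716-11 the Control samples lay closest together, at 7.26 ± 0.173 TPM, and in 4711-18 they were most spread, at 7.38 ± 1.67 TPM (SD, n = 3).

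Trp63 was close to the limit of detection. With sgBgal it was at 0.0305, 0.143 and 0.0741 TPM in Control samples of 4711-1, 4711-18 and 4716-11, and at 0, 0.0161 and 0.0113 TPM in Restored samples. With sgPpia#3.2 the Control values were 0.0281, 0.0282 and 0.0388 TPM and the Restored values 0, 0.0127 and 0.0765 TPM. With sgPpia#4.1 the Control values were 0.0529, 0.179 and 0.0319 TPM and the Restored values 0, 0.0307 and 0.0464 TPM. Trp63 was lower after restoration in 7 of 9 pairs and higher in 2, both in 4716-11 with a Ppia sgRNA. The sgPpia#4.1 pair of these had an estimated 6 reads in each state.

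The 9 Control samples held an estimated 98 Trp63 reads in all, with at least 1 read in each. The 9 Restored samples held 28 reads, found in 6 of them. All 3 Restored samples of 4711-1 had 0 reads, which allows up to 0.0151 to 0.0249 TPM at 3 reads, and their Control samples held 4, 6 and 11 reads. In 4711-18 the sum went from 49 to 8 reads, and in 4716-11 from 28 to 20 reads.

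No Trp63 difference passed a test. The difference of mean log2(TPM + 1) was -0.100 with sgBgal, where the groups did not overlap and the exact permutation test gave p = 0.1, the smallest it allows. It was -0.003 with sgPpia#3.2 (exact permutation p = 1) and -0.083 with sgPpia#4.1 (exact permutation p = 0.2). In a limma fit without the filter on low values, the adjusted p was 0.288, 1 and 0.47. Trp63 never reached 1 TPM, so it was not among the 12828 genes of the main test. At such levels it could not reach the log2 change of 1 needed for a call.

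Trp73 was lower still. With sgBgal the Control values were 0, 0.0198 and 0 TPM and the Restored values 0, 0 and 0.0259 TPM in 4711-1, 4711-18 and 4716-11. With sgPpia#3.2 all 3 Control samples were at 0 and the Restored samples at 0.0385, 0 and 0.00976 TPM. With sgPpia#4.1 the Control values were 0.00368, 0 and 0 TPM and the Restored values 0.00429, 0.00588 and 0.0237 TPM. Restored samples were higher in 6 of 9 pairs and lower in 1, and 2 pairs had no read on either side. Among the pairs that were higher, 4711-1 with sgPpia#4.1 had an estimated 1 read in each state. In 4711-18 with sgPpia#4.1 there was 1 read in the Restored sample against 0.

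The Control samples held 5 Trp73 reads in all, 4 of them in 4711-18 with sgBgal. The Restored samples held 24 reads in 6 samples, 10 of them in 4711-1 with sgPpia#3.2. In 4716-11 no Control sample had a Trp73 read and the Restored samples had 6, 2 and 4 reads. The exact permutation p was 1 for sgBgal, 0.4 for sgPpia#3.2 and 0.1 for sgPpia#4.1, the last being the smallest it allows. The log2(TPM + 1) differences were 0.003, 0.023 and 0.014. Without the filter on low values the limma adjusted p was 1, 0.704 and 0.871. No change of Trp73 was detected at this depth, but levels below 1 TPM cannot reach the log2 change of 1 needed for a call. These tests therefore could not decide whether Trp73 changed. Reads of Trp73 and of Trp73os could not be told apart if strand was not used in counting, which the sources used here do not state.

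**Figure D2:**
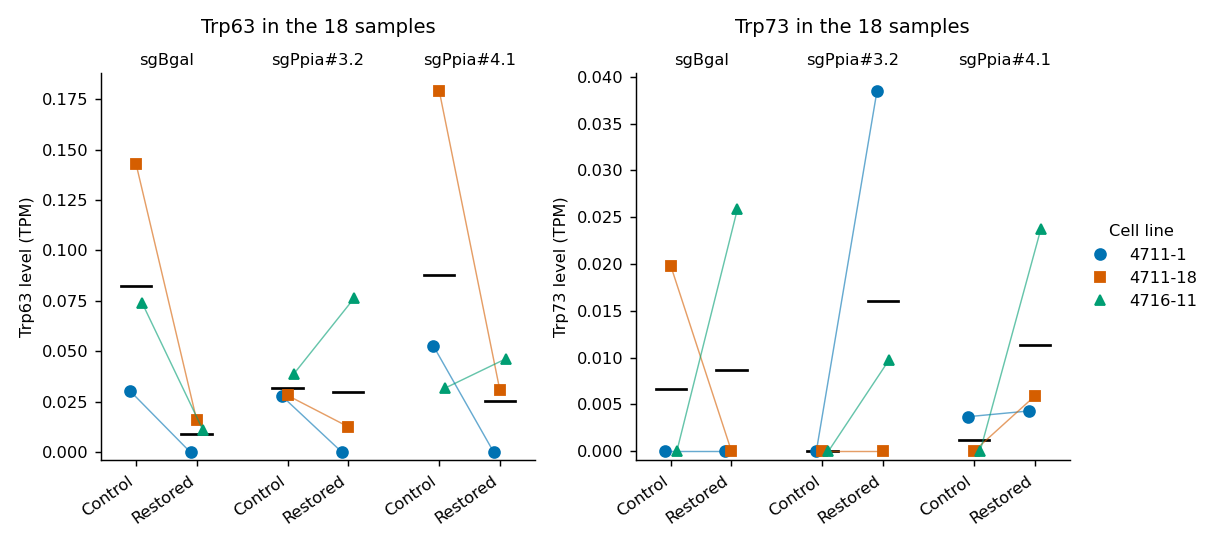
Trp63 (left) and Trp73 (right) level in TPM on linear axes in Control and Restored samples for each sgRNA. Points are samples, colours and shapes are the 3 cell lines, and black bars are means of 3 samples. Trp63 is at most 0.179 TPM and Trp73 at most 0.0385 TPM, and the lines joining samples go in both directions.

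By the group means, the order of the 3 genes per length was the same in Control and Restored samples. Trp53 came first at 7.09 and 213 TPM, followed by Trp63 at 0.0673 ± 0.0557 and 0.0215 ± 0.0258 TPM and Trp73 at 0.00261 ± 0.00657 and 0.0120 ± 0.0140 TPM (SD, n = 9). Trp53 stood apart from its relatives in every sample. Trp63 and Trp73 differed by less than their spread over the Restored samples.

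The second question was whether the level of a p53 family gene differed with the Ppia sgRNA. Trp53 did not differ detectably in either state. The Control mean was 7.76 ± 0.565 TPM in sgBgal cells, 6.41 ± 0.858 TPM in sgPpia#3.2 cells and 7.11 ± 1.24 TPM in sgPpia#4.1 cells (SD, n = 3). The Restored means, in the same order, were 216 ± 8.48, 210 ± 27.6 and 212 ± 10.6 TPM.

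In Control cells the log2 difference from sgBgal was -0.25 with sgPpia#3.2 (95% interval -0.57 to 0.08) and -0.12 with sgPpia#4.1 (-0.44 to 0.20), and the adjusted p by limma was 1 for both. Relative to the median gene these differences were -0.17 and -0.08. Trp53 was lower than with sgBgal in 3 of 3 lines with each guide. With sgPpia#3.2 the 3 lines were lower by different amounts, -0.13 in 4711-1, -0.54 in 4711-18 and -0.06 in 4716-11, and the exact permutation test gave p = 0.1, the smallest it allows. With sgPpia#4.1 the largest difference was in 4711-1, at -0.31, against -0.02 and -0.04 in the other lines (exact permutation p = 0.4).

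In Restored cells the difference was -0.05 with sgPpia#3.2 (95% interval -0.37 to 0.28) and -0.02 with sgPpia#4.1 (-0.35 to 0.30), and it turned to 0.06 and 0.05 after median-of-ratios rescaling. The exact permutation p was 0.8 and 0.6. Without 4711-18 the sgPpia#3.2 difference was 0.02, and without 4711-1 the sgPpia#4.1 difference was 0.04. Both guides were compared with the same sgBgal samples. No gene of the 12828 was called for either guide in either state, 0% of those tested, while 311 and 27 genes in Control and 154 and 68 in Restored cells had an unadjusted p under 0.05 by limma.

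The rise of Trp53 was compared between sgRNAs directly. It was larger than with sgBgal by 0.20 with sgPpia#3.2 (95% interval -0.26 to 0.66) and by 0.10 with sgPpia#4.1 (-0.36 to 0.55) on the log2 scale, with an adjusted p of 1 by limma for both. No gene was called for either interaction, 0% of 12828, with 31 and 18 genes at an unadjusted p under 0.05.

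**Figure D3:**
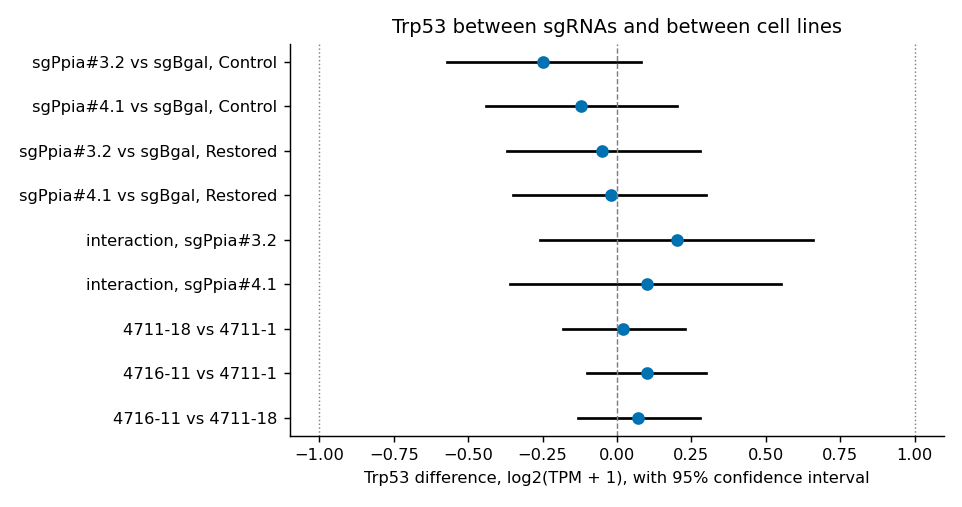
Differences of Trp53 on the log2(TPM + 1) scale, points, with 95% confidence intervals, lines, from limma on the values as deposited. The upper rows compare each Ppia sgRNA with sgBgal, the interaction rows give the difference between their restoration responses, and the lower rows compare cell lines. Every interval includes 0 (dashed line) and lies within the dotted lines at -1 and 1.

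No difference of Trp63 or Trp73 between guides passed a test. For Trp63 the exact permutation p was 0.2 and 0.9 in Control and 0.7 and 0.4 in Restored cells for sgPpia#3.2 and sgPpia#4.1. In Control cells Trp63 was lower with sgPpia#3.2 than with sgBgal in 3 of 3 lines, by -0.068 on average, with 18 against 40 reads. Most of this gap lay in 4711-18, with 4 against 22 reads, while 4711-1 had 6 against 4 reads, or 0.0281 against 0.0305 TPM. For Trp73 the exact permutation p ran from 0.6 to 1.

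No difference of Trp53 between the lines was called. Trp53 was at 6.64 ± 0.806, 7.38 ± 1.67 and 7.26 ± 0.173 TPM in Control and at 212 ± 11.5, 202 ± 19.4 and 224 ± 10.6 TPM in Restored samples of 4711-1, 4711-18 and 4716-11 (SD, n = 3). With condition taken into account, 4711-18 differed from 4711-1 by 0.02 on the log2 scale (adjusted p = 0.855 by limma), which turned to -0.07 after rescaling. 4716-11 was higher than 4711-1 by 0.10 (adjusted p = 0.414) and higher than 4711-18 by 0.07 (adjusted p = 0.522). After rescaling these differences were 0.18 (adjusted p = 0.182 by limma) and 0.26 (95% interval 0.02 to 0.49, adjusted p = 0.0622 by limma). Of all tested genes, 8.93%, 6.82% and 8.96% were called in these 3 comparisons, and Trp53 was not. For Trp63 without the filter, 4711-18 was higher than 4711-1 by 0.066 (adjusted p = 0.152 by limma). Each line is 1 line, so these p-values measure only the spread between its samples.

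The third question was which genes around the family moved with Trp53. The lists below were set for their known roles, but with earlier results of these data known, so their counts only describe these samples. Genes that switch p53 family proteins on or off came first. Of 33 regulators, all of which passed the filter through Control as well as Restored samples, 7 rose and 0 fell with each sgRNA: Mdm2, Mdm4, Ppm1d, Wwp1, Ppp1r13l, Ccng1 and Trp53inp1. That is 21.2% of the list, against 5.46%, 4.44% and 4.3% of all tested genes called higher with sgBgal, sgPpia#3.2 and sgPpia#4.1. Mdm2, Ccng1 and Trp53inp1 were also counted among the shared targets below. Without 4716-11 the Wwp1 calls with both Ppia sgRNAs (adjusted p = 0.0544 and 0.0576 by limma) and the Ppm1d call with sgPpia#4.1 (adjusted p = 0.0573 by limma) were lost. The median log2 change of the list was 0.21, 0.17 and 0.18, close to the 0.19, 0.17 and 0.15 of all tested genes.

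Mdm2, the ubiquitin ligase that degrades p53, was at 64.4 to 95.7 TPM in Control and 868 to 1884 TPM in Restored samples, and rose by 4.13, 4.02 and 3.83 on the log2 scale (adjusted p = 2.64e-07, 3.57e-07 and 6.42e-07 by limma). Mdm4, its relative that blocks p53 activity, was at 6.34 to 13.5 TPM and 24.9 to 43.7 TPM and rose by 1.88, 1.81 and 1.62, its sgPpia#3.2 call being lost without 4711-1 (adjusted p = 0.0584 by limma). The groups did not overlap for either gene. Trp53inp1, a p53-induced partner of p53 and p73, rose by 3.92, 3.25 and 3.22, and Ccng1, cyclin G1, by 3.71, 3.81 and 3.65. Ppp1r13l, which encodes the p53 family inhibitor iASPP, rose by 2.49, 2.05 and 2.55.

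Cdkn2a, whose Arf product holds back MDM2, was already at 1240 to 1789 TPM in Control samples and at 787 to 1250 TPM in Restored samples, lower in 9 of 9 pairs. The ranges overlapped narrowly. The log2 difference was -0.50, -0.49 and -0.50 (adjusted p = 0.0377, 0.0503 and 0.0455 by limma), short of the size needed for a call. The table gives no separate values for the Arf and Ink4a transcripts of this gene.

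Of 40 genes known as shared targets of the family, 28 rose in sgBgal cells, 25 in sgPpia#3.2 cells and 26 in sgPpia#4.1 cells, and 0 fell. Their median log2 change was 2.20, 2.12 and 2.04. Of these 40, Eda2r, Ptprv, Rprm and Trp53cor1 passed the filter only through Restored samples. Of the 36 that reached it in both states, 72.2%, 66.7% and 69.4% were called higher, beside 5.14%, 4.17% and 4.06% of the 11868 genes of the whole table that did so. Leaving out a line in turn left 20 to 24, 18 to 23 and 18 to 25 of the 40 called, in each case fewest without 4716-11. Cdkn1a, the cell cycle inhibitor p21, was at 99.4 to 369 TPM in Control and at 1565 to 3806 TPM in Restored samples and rose by 4.35, 3.84 and 4.06 (adjusted p = 1.82e-05, 6.07e-05 and 4.09e-05 by limma). Ak1, adenylate kinase 1, rose by 4.64, 4.60 and 4.80, and Dcxr, a carbonyl reductase, by 3.92, 3.98 and 3.80.

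**Figure D4:**
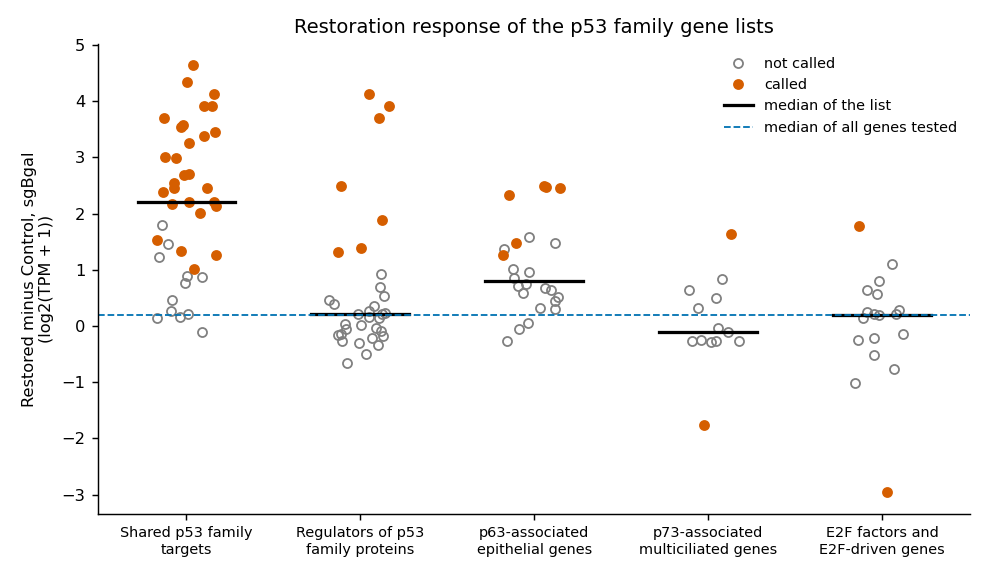
Change on the log2(TPM + 1) scale from Control to Restored cells carrying sgBgal for each tested gene of 5 lists. Filled points were called by limma, open points were not, black bars are list medians, and the dashed line is the median of all tested genes, 0.19. Of the shared targets 28 of 40 were called higher, and the bar of that list lies at 2.20.

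Genes tied to p63 in basal and stratified epithelium were mostly low. Of the 35 genes found for 36 listed names, 24 passed the filter, and Col17a1, Krt5, Krt6a, Lama3 and Zfp750 did so only through Restored samples. With sgBgal 6 rose, Perp, Itgb4, Lama3, Zfp750, Sfn and Ivl, of which Perp and Sfn were also counted among the shared targets. With sgPpia#3.2 and with sgPpia#4.1 the 5 without Sfn were called, and 0 fell with any sgRNA. Of the 19 members that reached the filter in both states, 4, 3 and 3 were called higher, or 21.1%, 15.8% and 15.8%, beside 5.14%, 4.17% and 4.06% of all such genes. Under a block for the cell line 10 were called with each sgRNA, and leaving out any of the lines left 1 to 3. Perp, a desmosomal protein that is also a p53 target, went from 73.6 to 201 TPM in Control to 559 to 859 TPM in Restored samples, a log2 rise of 2.45, 2.44 and 2.51. Itgb4, an integrin of hemidesmosomes, rose by 2.49, 2.27 and 2.49. Zfp750, a factor of epidermal differentiation, was at no more than 0.137 TPM in Control and at 1.04 to 9.10 TPM in Restored samples. Ivl, the cornified envelope protein involucrin, was at 0.0682 to 1.59 TPM and 2.74 to 11.7 TPM. Trp63 itself had 98 reads in Control and 28 reads in Restored samples. Summed basal markers were at 0.248 to 11.2 TPM and 1.47 to 20.8 TPM, with Krt14 at up to 10.5 and 20.3 TPM and Ngfr at or near 0.

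Genes tied to p73 in multiciliated cells showed 1 rise and 1 fall with each sgRNA among the 13 that passed the filter, out of 28 genes found for 30 listed names. Of the 9 that reached the filter in both states, 0 rose and 1 fell, or 11.1% called, beside 7.24%, 5.51% and 5.87% of all such genes called in either direction. Tekt2, a tektin of cilia, was at 0.301 to 0.965 TPM in Control and 1.24 to 4.22 TPM in Restored samples, and passed the filter only through the latter. Its call with each Ppia sgRNA was lost without 4711-18 and without 4716-11. Plk4, the kinase that starts centriole duplication in dividing cells as well, fell, with log2 changes of -1.76, -1.53 and -1.85. The summed level of 4 multiciliated markers was 5.93 to 17.0 TPM in Control and 4.68 to 12.5 TPM in Restored samples, mostly Tppp3, and Sntn was at 0 in all samples.

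Trp73 is a textbook target of E2F1, so E2F factors and E2F-driven genes were included, along with Rb1, Rbl1 and Rbl2 of the RB family. Of 18 genes, Rb1, whose function Cre removes in this model, rose by 1.78, 1.72 and 1.69. Ccna2, cyclin A2, fell from 44.1 to 150 TPM in Control to 4.31 to 20.1 TPM in Restored samples. Its log2 change with sgBgal was -2.96. These 2 genes were 11.1% of the list, beside 7.64%, 5.75% and 6.09% of all tested genes called in either direction. The other 16 genes were not called with any sgRNA in the fit without a block. Under a block for the cell line Ccne1, cyclin E1, was called higher with all 3 sgRNAs, by 1.11, 1.20 and 1.26 (adjusted p = 0.00991, 0.00837 and 0.00609 by limma), and E2f2 was called lower with sgBgal, at -1.02 (adjusted p = 0.0106 by limma). Without 4711-18 Ccne2, cyclin E2, was called higher with sgBgal and sgPpia#3.2, and without 4711-1 E2f2 was called lower with sgPpia#4.1. Rb1 was no longer called with any sgRNA without 4711-1 or without 4716-11, and Ccna2 was no longer called with either Ppia sgRNA without 4711-1.

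Annotated neighbours of each member, the nearest 3 measured genes on each side, were examined next. Wrap53, which shares the 103 bases printed above with Trp53, was at 13.2 to 20 TPM in Control and 17.0 to 29.3 TPM in Restored samples. Its log2 difference was 0.71, 0.56 and 0.53 (adjusted p = 0.0405, 0.12 and 0.142 by limma), against 4.63, 4.83 and 4.73 for Trp53, and it was not called. Efnb3, which encodes an ephrin and lies 20153 bases to the left, went from 0.885 to 1.52 TPM in Control to 2.47 to 5.54 TPM in Restored samples, and was called higher with log2 rises of 1.33, 1.2 and 1.25 (adjusted p = 0.000894, 0.00234 and 0.00162 by limma). The sgPpia#3.2 call of Efnb3 was lost without 4711-1 and without 4716-11, and the sgPpia#4.1 call without 4716-11. Atp1b2 and Sat2, on the right, were not called, and Dnah2 and Shbg were below the filter.

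Next to Trp73, Wrap73, 2163 bases beyond its outer end, was at 26.3 to 34.4 TPM in Control and 46.6 to 73.2 TPM in Restored samples without overlap. Its log2 difference was 0.85, 0.91 and 0.98 (adjusted p = 0.00835, 0.00666 and 0.00369 by limma), short of the size for a call. It was called without 4711-1, at 1.02 with sgPpia#3.2 and 1.23 with sgPpia#4.1, and at 1.00 with sgPpia#4.1 when the pseudocount was 0.1 (adjusted p = 0.00411 by limma). Next to Trp63, Tprg fell with sgBgal by 1.45 (adjusted p = 0.0353 by limma), and its differences of -1.02 and -1.32 with sgPpia#3.2 and sgPpia#4.1 were not called. Under a block for the cell line they were called (adjusted p = 0.00268 and 0.000473 by limma), and without any of the lines the sgBgal call was lost. Lpp and P3h2 near Trp63, and Lrrc47, Smim1 and Tprgl near Trp73, were not called in any of the 3 comparisons. A230028O05Rik, Cldn1 and Cldn16 near Trp63, and Ccdc27 and Megf6 near Trp73, were below the filter.

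The genes whose pattern over all 18 samples was nearest to that of Trp53 were found by the root mean square difference of mean-centred log2(TPM + 1) levels among the 12828 tested genes. They were Cd80, an immune co-stimulatory ligand, at 0.36, Inka2 at 0.37, Ddit4l at 0.39, Sytl1 at 0.47 and Ak1 at 0.48, against an SD of 2.44 for Trp53. These genes went from low to high with restoration as Trp53 did, Cd80 from a median of 0.434 to 28.2 TPM and Ak1 from 9.48 to 272 TPM. Over the 9 Restored samples alone the nearest were Faim at 0.05, Gm38426 at 0.06 and Eftud2, Elp6 and Ptpa at 0.07, none of which is among the 5 named over all samples.

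Last, the Trp53 level of each Restored sample was set beside the levels of its targets. In 4711-1 the sgBgal, sgPpia#3.2 and sgPpia#4.1 samples had 223, 213 and 200 TPM of Trp53, and Cdkn1a followed the same order at 2125, 1892 and 1565 TPM, as did Mdm2 at 1604, 1591 and 868 TPM. In 4711-18 Trp53 was at 206, 181 and 219 TPM, Cdkn1a at 3806, 2780 and 3386 TPM and Mdm2 at 1884, 1332 and 1613 TPM. In 4716-11 Trp53 was at 218, 236 and 217 TPM, nearly equal with sgBgal and sgPpia#4.1. Cdkn1a was at 2158, 2124 and 2306 TPM and Mdm2 at 1047, 1072 and 978 TPM. Within this line the sgPpia#3.2 sample had the least Cdkn1a and the most Mdm2, each by a narrow margin. The sample with the most Trp53, 4716-11 with sgPpia#3.2, thus had less Cdkn1a than all 3 samples of 4711-18.

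**Figure D5:**
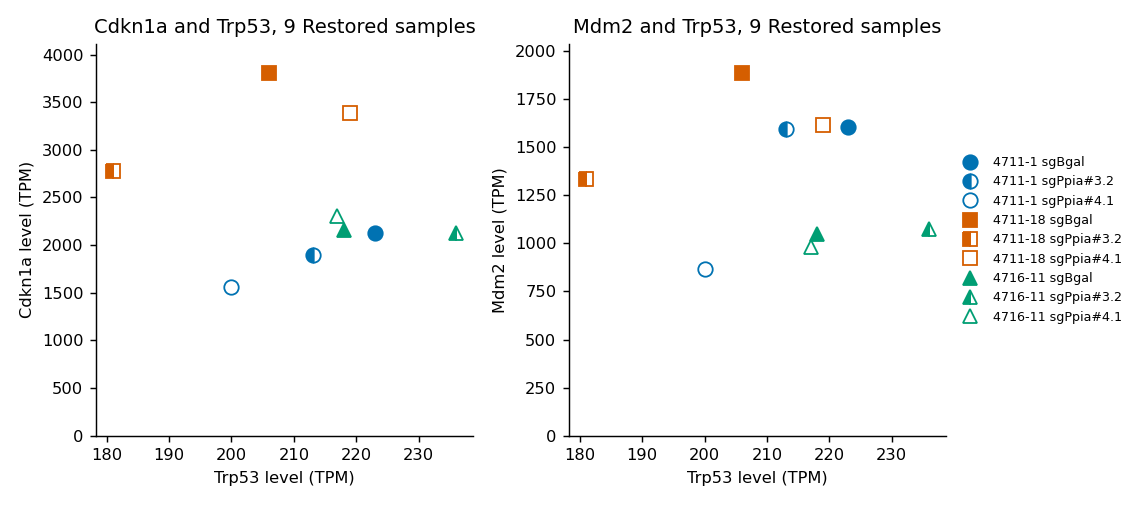
Cdkn1a (left) and Mdm2 (right) level in TPM against Trp53 level in TPM in the 9 Restored samples. Colours and shapes are cell lines, and filled, part-filled and open symbols are sgBgal, sgPpia#3.2 and sgPpia#4.1. The 4711-18 samples hold the 3 highest Cdkn1a levels, 2780 to 3806 TPM, at Trp53 levels of 181 to 219 TPM.

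The mean log2(TPM + 1) rise of the 40 shared targets within a pair ran from 1.60 in 4711-1 with sgPpia#4.1, at 200 TPM of Trp53, to 2.34 in 4711-18 with sgBgal, at 206 TPM. Both samples thus had nearly the same Trp53 level at the ends of the range of target rise. The pair with the lowest Restored Trp53, 181 TPM, had a rise of 1.90, and the pair with the highest, 236 TPM, had 2.20. In the former the targets had the highest mean Control level of all pairs, 4.57, and a Restored level of 6.47. In the latter these levels were 4.24 and 6.44. With 3 lines that recur under each guide, no correlation across these samples was computed.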

How the data were processed

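RNA from 18 samples was sequenced after library preparation with a NEBNext Ultra II kit. The authors deposited TPM for 25239 genes, and these TPM values were used as deposited. The authors' notes name bcl2fastq 2.17, HISAT2, and the builds mm10 and GRCm39, while the paper also names Kallisto. Which of these served these samples, the counter and the use of strand are not given in the sources used here. All 18 columns matched a sample label.

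The test took the 12828 genes that reached 1 TPM in 3 or more samples, among them 1 of the 3 members. limma 3.58.1 in R 4.3.3 was fitted to log2(TPM + 1) with 1 mean per condition over all 18 samples, with Benjamini-Hochberg adjustment over all genes tested. Fold changes on this scale understate the change of low genes. Line contrasts added the cell line as a term. Exact two-sided permutation tests compared 3 against 3 samples. The fit was tested on simulated data.

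Reads were estimated as the smallest whole numbers that fit a gene's TPM over the samples within a tolerance of 0.05, which held for 86.3% of 18738 genes, all 3 members included. Relative depth differed by up to 1.77 times, and the genes with estimated reads held between 12388970 and 23214112 reads per sample, which is a lower bound on depth. No count test was run.

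Replicate numbers are the cell lines, so samples of a line are paired by origin. Deviations from condition means correlated at 0.58 or more over all 45 pairs of samples of the same line. Each sample is a culture of 1 line, so p-values measure the spread between lines and cultures. The members and lists were chosen with earlier results of these data known. Named were the members, up to 4 called genes per list with the largest change with sgBgal plus Cdkn1a, Mdm2, Mdm4 and Cdkn2a, the label markers, of which 1 is not reported here, the nearest 3 measured neighbours on each side and the 5 nearest patterns. The called members of a list were named in full where 7 or fewer. Alternatives changed the pseudocount, the filter, the scaling, the spread estimate, the block and the set of lines, and the count of list members over genes that reached the filter in both states was added after seeing the data. Gene positions came from GENCODE M21 (GRCm38), whose build may differ from the authors'.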

Additional observations from a re-analysis of the deposited data

How the results depend on the processing

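Trp53 was called higher in Restored cells with all 3 sgRNAs under every alternative run, with log2 rises from 4.44 to 5.01. Its differences between guides in Restored cells and between 2 lines changed sign. Median-of-ratios rescaling turned the Restored differences to 0.06 with sgPpia#3.2 and 0.05 with sgPpia#4.1, and that between 4711-18 and 4711-1 to -0.07. Leaving out each line in turn gave -0.13 to 0.02 (positive without 4711-18) and -0.08 to 0.04 (positive without 4711-1) for the guides.

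Counts over all genes moved more. Fitted on the compared groups alone, 367 genes were called with sgPpia#3.2 and 416 with sgPpia#4.1, against 738 and 781. Pairing the samples by a replicate block gave 1414, 1105 and 1177 calls with sgBgal, sgPpia#3.2 and sgPpia#4.1, against 980, 738 and 781. For sgPpia#3.2 against sgBgal the block gave 2 calls in Control and 1 in Restored cells, against 0. The block changed no call of Trp53. With a pseudocount of 0.1, 1387 and 1776 genes were called between 4716-11 and the lines 4711-1 and 4711-18. Without a line in turn, 471 to 674 genes were called with sgBgal, 229 to 633 with sgPpia#3.2 and 278 to 690 with sgPpia#4.1, each range lowest without 4716-11. Fewer samples enter these fits, and other causes were not tested.

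Some Trp63 and Trp73 differences, on the log2(TPM + 1) scale, changed sign as lines were left out. For Trp63 they ran from -0.031 to 0.015 for restoration with sgPpia#3.2, from -0.002 to 0.045 for sgPpia#3.2 against sgBgal in Restored cells and from -0.013 to 0.038 for sgPpia#4.1 against sgBgal in Control cells. For Trp73 they ran from -0.014 to 0.018 for restoration with sgBgal, from -0.011 to 0.027 for sgPpia#3.2 against sgBgal in Restored cells and from -0.014 to 0.003 for sgPpia#4.1 against sgBgal in Control cells. Restoration differences kept their sign whichever line was left out for Trp63 with sgBgal (-0.128 to -0.065) and sgPpia#4.1 (-0.134 to -0.027) and for Trp73 with sgPpia#3.2 (0.007 to 0.034) and sgPpia#4.1 (0.005 to 0.021). Both genes are limited by depth, since 1 read was worth 0.00358 to 0.0083 TPM. The filter at 5 TPM leaves them out, and the block, the fit on the compared groups alone and the trended fit were not run for them.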
